A study of Rattus norvegicus with 16 samples.

Results

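The 10 genes described here are the Toll-like receptors (TLRs) Tlr1, Tlr2, Tlr3, Tlr4, Tlr5, Tlr7, Tlr8 and Tlr9 and the co-receptors Cd14 and Ly96, out of 20667 gene symbols on the array. They were chosen by symbol. Each had 1 row in the deposited table, so no choice between rows was needed. Gene expression was read on 16 Clariom S arrays, a format that gives 1 log2 signal for each annotated rat transcript cluster.

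All cells came from untreated male Lewis rats, whose ages are not given in the sources used here. Each of 4 populations was sorted from thymus and from spleen, which gave 8 groups with 2 replicate arrays each. All sorts took CD45+ cells that excluded propidium iodide, a dye that enters dead cells. Type 1 conventional dendritic cells (cDC1) were MHCII+ CD103+ CD172a-, and type 2 (cDC2) were MHCII+ CD103+ CD172a+. The third population, called CD103- cells here, was MHCII+ CD103- CD45R- CD172a+. Macrophages were CD45R- and bound HIS36, an antibody to rat Cd163. Splenic dendritic cells were enriched on a density gradient and thymic ones with MHCII microbeads, so organ and enrichment cannot be told apart in the dendritic sorts. Macrophages of both organs were enriched with CD11b/c beads, so population and enrichment cannot be told apart where macrophages are compared with dendritic sorts. Separate animals are not stated for the replicates, so a p-value measures only the spread between these arrays, which may be technical.

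TLRs recognise conserved microbial molecules and signal through the adaptor Myd88 or, for Tlr3 and part of the Tlr4 response, through Ticam1. Tlr1, Tlr2, Tlr4 and Tlr5 work at the cell surface, where Tlr2 pairs with Tlr1 or Tlr6 to detect bacterial lipopeptides, Tlr4 detects lipopolysaccharide and Tlr5 detects flagellin. Cd14 hands lipopolysaccharide to the complex of Tlr4 with its partner Ly96 (MD-2). Tlr3, Tlr7, Tlr8 and Tlr9 detect nucleic acids in endosomes. In mice, cDC1 are known for Tlr3, and monocytes and macrophages for Cd14 and Tlr4.

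Levels are deposited log2 signals, in which 1 unit is a 2-fold difference, and group means are given with the SD of the 2 arrays. Signals of different genes come from different probes and were not set against each other. The array medians lay between 5.87 and 5.95. The 95th percentile of 1160 olfactory receptor clusters, 5.67, served as the background level. A difference from a group at or below it is given as a bound ("at least"). Of the 80 group means of the 10 genes, 75 lay above it. The 5 others were Cd14 and Tlr8 in both cDC1 groups and Tlr7 in splenic cDC1. Differences were called at an adjusted p under 0.05 from limma's moderated test, adjusted over 23188 clusters.

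The sort markers followed the gates with exceptions. Itgae, which encodes CD103, averaged 13.27 to 14.49 in the cDC1 and cDC2 groups and 6.02 to 9.02 in the others. Sirpa, which encodes CD172a, averaged 8.56 and 9.07 in cDC1 and 17.71 to 18.71 elsewhere. Cd163 averaged 16.56 and 15.98 in thymic and splenic macrophages, but thymic cDC2 also averaged 11.34 and thymic CD103- cells 8.05. The mean of 11 neutrophil markers was 10.55 to 10.83 on the macrophage arrays and 4.19 to 5.61 on the dendritic arrays. On macrophage arrays S100a8 averaged 17.5 in thymus and 16.36 in spleen, and Ngp 16.04 and 14.86, while Elane and Ltf lay below background. This list moved with every gene called higher in macrophages, and its part in those results was not tested.

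**Figure D1:**
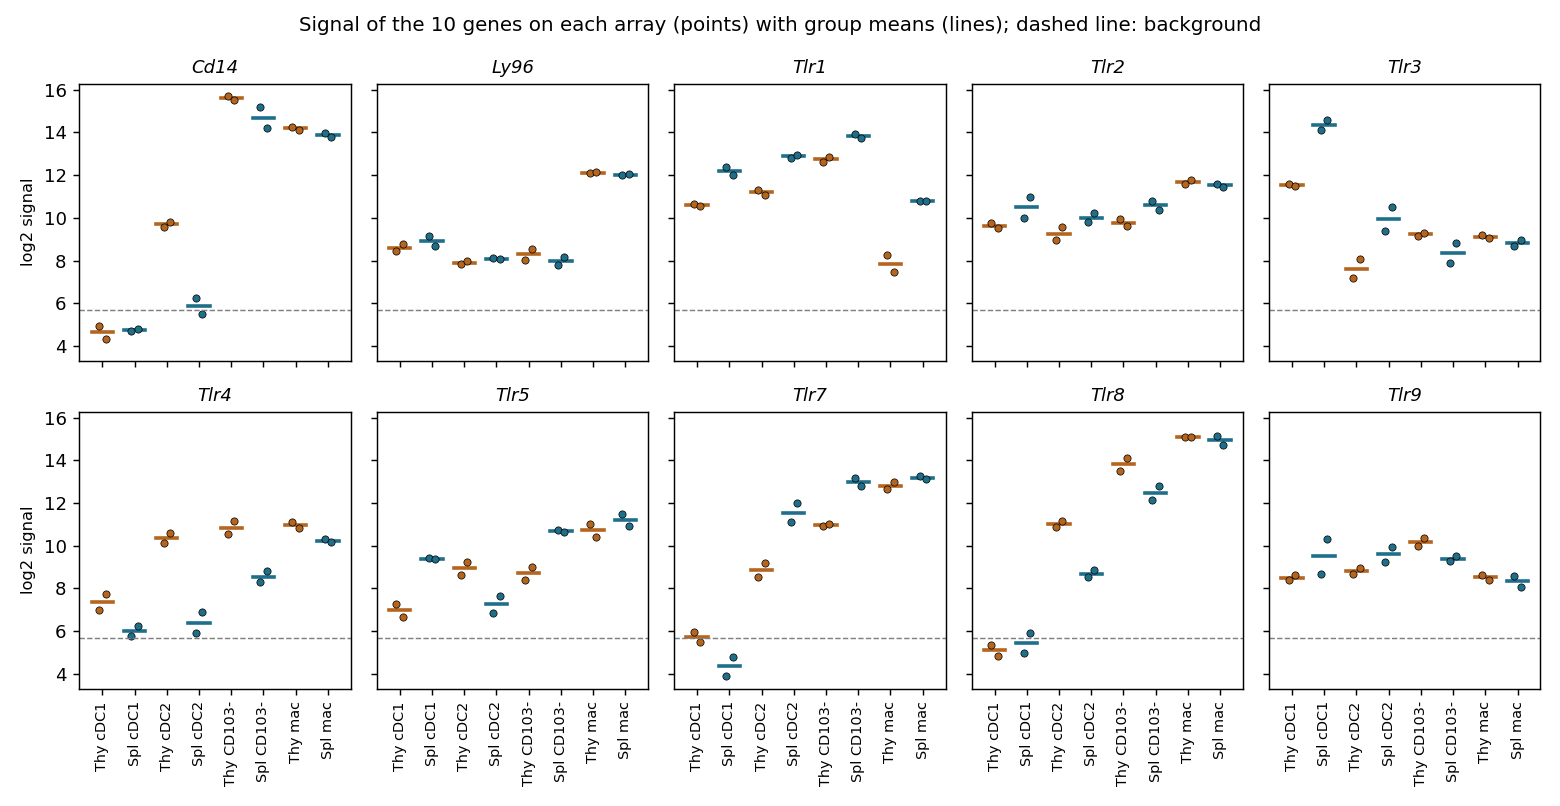
Deposited log2 signal (vertical axis) of the 10 genes in 8 groups (horizontal axis; Thy, thymus; Spl, spleen; mac, macrophage). Points are single arrays, short lines are group means of 2 arrays, brown is thymus, blue is spleen, and the dashed line is the background of 5.67. The group means of Cd14 and Tlr8 lie below it in cDC1 and reach 15.61 and 15.09 in their highest groups, whereas Tlr9 stays between 8.08 and 10.35 on all arrays.

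The group means of Cd14 spanned 10.97 log2 units, those of Tlr8 9.99 and those of Tlr7 8.86, against a median span of 1.12 over all clusters. Tlr9 had the smallest span of the 10, at 1.83, and Tlr2 came next at 2.43. The others spanned 4.22 to 6.75 units.

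Upstream windows are shown for 3 genes with unlike patterns, Tlr3 (highest in cDC1), Tlr4 (higher in thymus than in spleen in 3 of 4 populations) and Tlr8 (highest in macrophages). RefSeq promoter entries on the build GRCr8 matched 9 of the 10 genes, and each sequence is the 250 bases before the annotated start, read 5′ to 3′ in the direction of the gene. All of them lie on the plus strand. The Tlr3 window is chr16:53554666-53554915, the Tlr4 window is chr5:85160997-85161246 and the Tlr8 window is chrX:30708476-30708725. Capitals mark matches on either strand to GAGGAA, a core motif bound by the myeloid factor PU.1.
Tlr3: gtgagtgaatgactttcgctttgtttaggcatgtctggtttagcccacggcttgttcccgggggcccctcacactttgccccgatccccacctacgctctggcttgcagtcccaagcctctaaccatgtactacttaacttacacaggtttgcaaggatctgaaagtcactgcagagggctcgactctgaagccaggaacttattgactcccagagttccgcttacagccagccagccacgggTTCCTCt
Tlr4: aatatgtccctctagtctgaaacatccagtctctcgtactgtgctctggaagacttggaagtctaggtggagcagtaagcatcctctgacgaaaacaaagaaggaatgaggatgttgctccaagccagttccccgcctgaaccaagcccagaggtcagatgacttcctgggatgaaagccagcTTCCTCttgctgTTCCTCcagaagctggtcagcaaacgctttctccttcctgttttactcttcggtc
Tlr8: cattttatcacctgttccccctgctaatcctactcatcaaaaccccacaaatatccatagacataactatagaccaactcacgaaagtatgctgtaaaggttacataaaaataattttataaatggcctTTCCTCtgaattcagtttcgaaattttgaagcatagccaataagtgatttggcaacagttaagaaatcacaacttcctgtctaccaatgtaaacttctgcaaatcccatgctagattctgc

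The Tlr4 window held 2 matches, beginning 67 and 55 bases before the start. The Tlr3 window held 1, at 7 bases, and the Tlr8 window held 1, at 121 bases. GAGGAA occurred on either strand in 23.3% of the 33469 promoter windows of the same length. The same windows were searched for the ETS-IRF composite element (a GGAA and a GAAA with any 2 bases between them), the interferon-stimulated element (a pair of GAAA with any 2 bases between them), TGANTCA (AP-1) and the NF-kB consensus, which occurred in 2.48%, 3.41%, 6.34% and 3.54% of all windows. None of these 4 motifs matched in the Tlr3, Tlr4 or Tlr8 window. Of the windows not shown, those of Cd14, Tlr7 and Tlr9 held GAGGAA and those of Tlr1, Tlr2 and Tlr5 did not. There the NF-kB consensus matched in Tlr2, the composite element in Tlr5 and TGANTCA in Tlr9. The GGAA of the composite element can also lie within a GAGGAA match, and both elements with GAAA can overlap each other. A match describes letters only.

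Cd14 was high in CD103- cells and macrophages, low in cDC2 and below background in cDC1. It read 15.7 and 15.51 in thymic CD103- cells and 15.18 and 14.21 in splenic ones. Macrophages read 14.28 and 14.14 in thymus and 13.99 and 13.8 in spleen. The 8 arrays of these 4 groups all lay above every other array. Thymic cDC2 read 9.58 and 9.82, and splenic cDC2 6.25 and 5.5, which is close to background. cDC1 read 4.95 and 4.33 in thymus and 4.72 and 4.77 in spleen. In a bulk sort, fewer cells that carry a transcript and less of it per cell cannot be told apart.

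Cd14 was higher in CD103- cells than in cDC2 by 5.91 log2 units in thymus (SE 0.31, adjusted p = 1.28e-09) and by 8.82 in spleen (SE 0.31, adjusted p = 1.04e-11). Against cDC1 it was higher by at least 9.93 units in thymus and at least 9.02 in spleen. Thymic CD103- cells also exceeded thymic macrophages, by 1.4 units (SE 0.31, adjusted p = 0.00126). The splenic difference of 0.8 units (SE 0.31, adjusted p = 0.0464) ranged from 0.32 to 1.29 over the fits that left out 1 array, and 11 of these 16 fits lost the call, with an adjusted p of up to 0.507. Within the order of means, neighbours among the 4 high groups did not pass the test. Splenic macrophages stood 4.2 units above thymic cDC2 (SE 0.31, adjusted p = 3.59e-09), and thymic cDC2 3.83 above splenic cDC2 (SE 0.31, adjusted p = 6.41e-08).

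Ly96, the partner that Tlr4 needs to bind lipopolysaccharide, was set apart by macrophages. The macrophage arrays read 12 to 12.13 and the dendritic arrays 7.77 to 9.15, so the groups did not overlap. The group means of the 6 dendritic sorts lay between 7.91 and 8.91. Macrophages exceeded CD103- cells by 3.84 units in thymus (SE 0.24, adjusted p = 7.93e-10) and 4.07 in spleen (SE 0.24, adjusted p = 4.6e-10). The differences from cDC1 and cDC2 were 3.12 to 4.22 units. CD103- cells and cDC2, which were so far apart in Cd14, differed in Ly96 by 0.39 units in thymus (SE 0.24, adjusted p = 0.413) and -0.13 in spleen (SE 0.24, adjusted p = 0.858). Among splenic dendritic cells Ly96 was lower than in cDC1 by 0.95 units in CD103- cells (adjusted p = 0.00802) and by 0.82 in cDC2 (adjusted p = 0.0236). The first call was lost without replicate 1 of either group, and the second without cDC1 replicate 1 or either cDC2 array. Over all fits that left out 1 array the differences ranged from -1.19 to -0.71 and from -1.06 to -0.58, with adjusted p of up to 0.111 and 0.235.

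Tlr4 separated the dendritic sorts by organ as well as by population. Thymic CD103- cells read 10.57 and 11.14, close to thymic macrophages at 11.12 and 10.82. Thymic cDC2 read 10.11 and 10.59, and splenic macrophages 10.3 and 10.18. Each of these 4 groups overlapped its neighbour in the order of means. Splenic CD103- cells were lower, at 8.28 and 8.81. Thymic cDC1 read 7.01 and 7.74. Splenic cDC2 read 5.93 and 6.88 and splenic cDC1 5.75 and 6.22, with means of 6.41 and 5.99 below the 99th percentile of the olfactory receptor clusters (6.69).

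In spleen Tlr4 was higher in CD103- cells than in cDC2 by 2.14 units (SE 0.33, adjusted p = 0.000249) and lower than in macrophages by 1.7 (SE 0.33, adjusted p = 0.000445). In thymus the same comparisons gave 0.51 (SE 0.33, adjusted p = 0.453) and -0.12 (SE 0.33, adjusted p = 0.831). Whether such differences themselves differed by organ was tested separately. Against cDC1, CD103- cells were higher by 3.48 units in thymus (SE 0.33, adjusted p = 3.09e-07) and 2.56 in spleen (SE 0.33, adjusted p = 1.41e-05).

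Tlr1, which forms the receptor for triacylated lipopeptides with Tlr2, was highest in splenic CD103- cells and lowest in thymic macrophages. CD103- cells read 12.62 and 12.86 in thymus and 13.92 and 13.74 in spleen. cDC2 read 11.31 and 11.08 in thymus and 12.81 and 12.95 in spleen. cDC1 read 10.64 and 10.56 in thymus and 12.39 and 11.99 in spleen. In every dendritic population both splenic arrays lay above both thymic ones. Macrophages read 8.25 and 7.45 in thymus and 10.78 and 10.81 in spleen. CD103- cells exceeded macrophages by 4.89 units in thymus (SE 0.25, adjusted p = 9.66e-11) and 3.04 in spleen (SE 0.25, adjusted p = 2.47e-08). They exceeded cDC2 by 1.55 units in thymus (SE 0.25, adjusted p = 0.000345). In spleen the excess over cDC2 was 0.95 units (SE 0.25, adjusted p = 0.0217), a call that was lost without any 1 of the 4 arrays compared (0.86 to 1.04, adjusted p of up to 0.145).

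A further cluster carried the symbols Tlr10 and Tlr1 together and could not be assigned to either gene. RefSeq places Tlr6, Tlr1 and Tlr10 next to one another. That cluster followed another order, averaging 13.23 and 15.41 in thymic and splenic cDC1, 8.91 and 12.44 in cDC2, 6.17 and 10.04 in CD103- cells, and 5.81 and 8.67 in macrophages. It was highest in cDC1, where the Tlr1 cluster was not.

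Tlr2, the shared subunit of the lipopeptide receptors, varied little among dendritic cells. The dendritic arrays read 8.95 to 10.98 and the macrophage arrays 11.45 to 11.77. No dendritic array reached the macrophage range. Thymic macrophages exceeded thymic cDC2 by 2.43 units (SE 0.3, adjusted p = 2.33e-06), cDC1 by 2.04 (SE 0.3, adjusted p = 1.72e-05) and CD103- cells by 1.9 (SE 0.3, adjusted p = 5.32e-05). In spleen they exceeded cDC2 by 1.51 units (SE 0.3, adjusted p = 0.000471). The splenic differences from CD103- cells and cDC1 were smaller, 0.94 units (adjusted p = 0.0189) and 1.03 units (adjusted p = 0.00969). The first was lost without CD103- replicate 2 or either macrophage array (adjusted p of up to 0.147). The second was lost without replicate 1 of cDC1 or of macrophages and fell to 0.54 units without that cDC1 array (adjusted p of up to 0.201). None of the 6 comparisons among dendritic populations within an organ was called for Tlr2, with differences of -0.48 to 0.57.

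Tlr5, the flagellin receptor, followed a different order in each organ. Macrophages read 11.03 and 10.43 in thymus and 11.49 and 10.91 in spleen, and splenic CD103- cells 10.74 and 10.64. Thymic CD103- cells read 8.39 and 9.02, and thymic cDC2 8.64 and 9.25, so these groups overlapped. Splenic cDC2 read only 6.87 and 7.63. cDC1 read 7.28 and 6.68 in thymus but 9.41 and 9.37 in spleen. Splenic CD103- cells thus exceeded splenic cDC2 by 3.44 units (SE 0.32, adjusted p = 8.36e-07), while thymic CD103- cells differed from thymic cDC2 by -0.24 (SE 0.32, adjusted p = 0.788). Between cDC2 and cDC1 the sign turned, from 1.97 units higher in cDC2 in thymus (SE 0.32, adjusted p = 0.000266) to 2.14 units lower in spleen (SE 0.32, adjusted p = 9.06e-05). CD103- cells fell below macrophages by 2.03 units in thymus (SE 0.32, adjusted p = 5.82e-05), and in spleen the difference was -0.51 (SE 0.32, adjusted p = 0.232). Against cDC1, CD103- cells were higher by 1.73 units in thymus (adjusted p = 0.000691) and 1.3 in spleen (adjusted p = 0.00763). The splenic call was lost without CD103- replicate 1 (adjusted p = 0.0528).

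Tlr3, the endosomal receptor for long RNA duplexes, marked cDC1. Splenic cDC1 read 14.13 and 14.59 and thymic cDC1 11.61 and 11.5. Splenic cDC2 came next at 9.39 and 10.53, and thymic cDC2 had the lowest group, at 7.16 and 8.07. CD103- cells read 9.15 and 9.3 in thymus and 7.88 and 8.84 in spleen. Macrophages read 9.2 and 9.04 in thymus and 8.66 and 8.94 in spleen. Both cDC1 groups lay above every other array, and splenic cDC1 stood 2.81 units above thymic cDC1 (SE 0.37, adjusted p = 2.91e-05). Below them, no neighbours in the order passed the test.

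For Tlr3, the difference of cDC2 from cDC1 was -3.94 units in thymus (SE 0.37, adjusted p = 3.71e-07) and -4.4 in spleen (SE 0.37, adjusted p = 6.52e-08). The difference of CD103- cells from cDC1 was -2.33 units in thymus (SE 0.37, adjusted p = 0.000111) and -6 in spleen (SE 0.37, adjusted p = 8.71e-10). CD103- cells and cDC2 differed in opposite directions in the 2 organs. In thymus Tlr3 was higher in CD103- cells by 1.61 units (SE 0.37, adjusted p = 0.00675), and in spleen it was lower by 1.6 (SE 0.37, adjusted p = 0.00778). The thymic call was lost without cDC2 replicate 1, at 1.16 units (adjusted p = 0.136), or without CD103- replicate 2, at 1.54 (adjusted p = 0.0619). The splenic call was lost without cDC2 replicate 2, at -1.03 (adjusted p = 0.167), or without CD103- replicate 1, at -1.12 (adjusted p = 0.148). The mean of 8 cDC1 markers was 10.04 and 10.66 on the splenic cDC2 arrays and 8.85 and 9.21 on the thymic ones. Among them Xcr1 averaged 9.3 in splenic cDC2 and lay below background, at 4.83, in thymic cDC2. On the splenic macrophage arrays the marker mean was 9.8 and 10.02 and Xcr1 averaged 11.535. Tlr3 averaged 8.8 there, against 9.96 in splenic cDC2. The part of these markers in the cDC2 values was not tested.

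Tlr7, a receptor for single-stranded RNA, rose from cDC1 through cDC2 to CD103- cells in both organs. cDC1 read 5.97 and 5.47 in thymus, at background, and 3.9 and 4.79 in spleen, below it. cDC2 read 8.55 and 9.18 in thymus and 11.1 and 12 in spleen. CD103- cells read 10.93 and 11.01 in thymus and 13.16 and 12.81 in spleen. No 2 of these 6 groups overlapped. Macrophages read 12.65 and 12.98 in thymus and 13.29 and 13.11 in spleen. Splenic CD103- cells and splenic macrophages overlapped, with a difference of -0.22 (SE 0.33, adjusted p = 0.643), whereas thymic CD103- cells were lower than thymic macrophages by 1.85 units (SE 0.33, adjusted p = 0.000176).

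CD103- cells exceeded cDC2 in Tlr7 by 2.11 units in thymus (SE 0.33, adjusted p = 0.00023) and 1.44 in spleen (SE 0.33, adjusted p = 0.00797). The splenic call was lost without replicate 1 of cDC2 (0.99, adjusted p = 0.143) or of CD103- cells (1.26, adjusted p = 0.0871). cDC2 exceeded cDC1 by 3.15 units in thymus (SE 0.33, adjusted p = 1.53e-06) and by at least 5.88 in spleen. Tlr7 is known for its high level in plasmacytoid dendritic cells. The mean of 11 plasmacytoid markers was 11.55 and 11.14 on the splenic CD103- arrays and 9.81 and 9.84 on the thymic ones. It was 10.35 and 10.6 in splenic cDC2, 9.27 and 9.35 in thymic cDC2, and 9.7 and 9.75 in splenic macrophages, the group with the highest Tlr7 mean. In thymic macrophages, with a Tlr7 mean of 12.815, it was 8.47 and 8.56, and on the cDC1 arrays 7.36 to 8.15. Siglech averaged 9.01 in splenic CD103- cells and 7.26 in splenic cDC2 and was below background in the other 6 groups, and Ly6d was below background in all 8. The part of these markers in the Tlr7 values was not tested.

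Tlr8, the neighbour of Tlr7 on the X chromosome in RefSeq and in humans a receptor for RNA breakdown products, had the most graded order. Macrophages read 15.08 and 15.09 in thymus and 15.16 and 14.73 in spleen. CD103- cells read 13.52 and 14.1 in thymus and 12.14 and 12.79 in spleen. cDC2 read 10.86 and 11.16 in thymus and 8.53 and 8.86 in spleen. The macrophage, CD103- and cDC2 groups did not overlap one another, and every step from splenic macrophages down to splenic cDC1 passed the test. cDC1 read 5.35 and 4.84 in thymus and 4.96 and 5.9 in spleen, with both means below background. CD103- cells exceeded cDC2 by 2.8 units in thymus (SE 0.32, adjusted p = 7.5e-06) and 3.77 in spleen (SE 0.32, adjusted p = 2.36e-07). cDC2 exceeded cDC1 by at least 5.34 and at least 3.02 units. CD103- cells lay below macrophages by 1.28 units in thymus (SE 0.32, adjusted p = 0.00351) and 2.48 in spleen (SE 0.32, adjusted p = 5e-06). The thymic call was lost without CD103- replicate 1 (adjusted p = 0.0629).

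Tlr9, the receptor for unmethylated CpG DNA, changed least. Its arrays read 8.08 to 10.35, and no neighbours in the order of group means passed the test. Thymic CD103- cells had the highest mean, 10.16 ± 0.27 (SD, n = 2), and splenic macrophages the lowest, 8.34 ± 0.36. The 2 splenic cDC1 arrays read 8.66 and 10.34 and covered most of that range. In thymus CD103- cells exceeded macrophages by 1.64 units (SE 0.39, adjusted p = 0.00229) and cDC1 by 1.65 (SE 0.39, adjusted p = 0.00477). The latter call was lost without CD103- replicate 2 (adjusted p = 0.0588). The excess of 1.33 over thymic cDC2 (SE 0.39, adjusted p = 0.0357) was lost without any 1 of the 4 arrays compared (1.14 to 1.52, adjusted p of up to 0.226). In spleen Tlr9 was lower in macrophages than in cDC2 by 1.27 units (adjusted p = 0.0134), than in cDC1 by 1.17 (adjusted p = 0.0213) and than in CD103- cells, which were higher by 1.06 (adjusted p = 0.038). Each was lost without macrophage replicate 2 or without 1 or both arrays of the other group. The cDC1 difference shrank to -0.33 without cDC1 replicate 2, and the adjusted p of the 3 calls reached 0.146, 0.487 and 0.23.

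**Figure D2:**
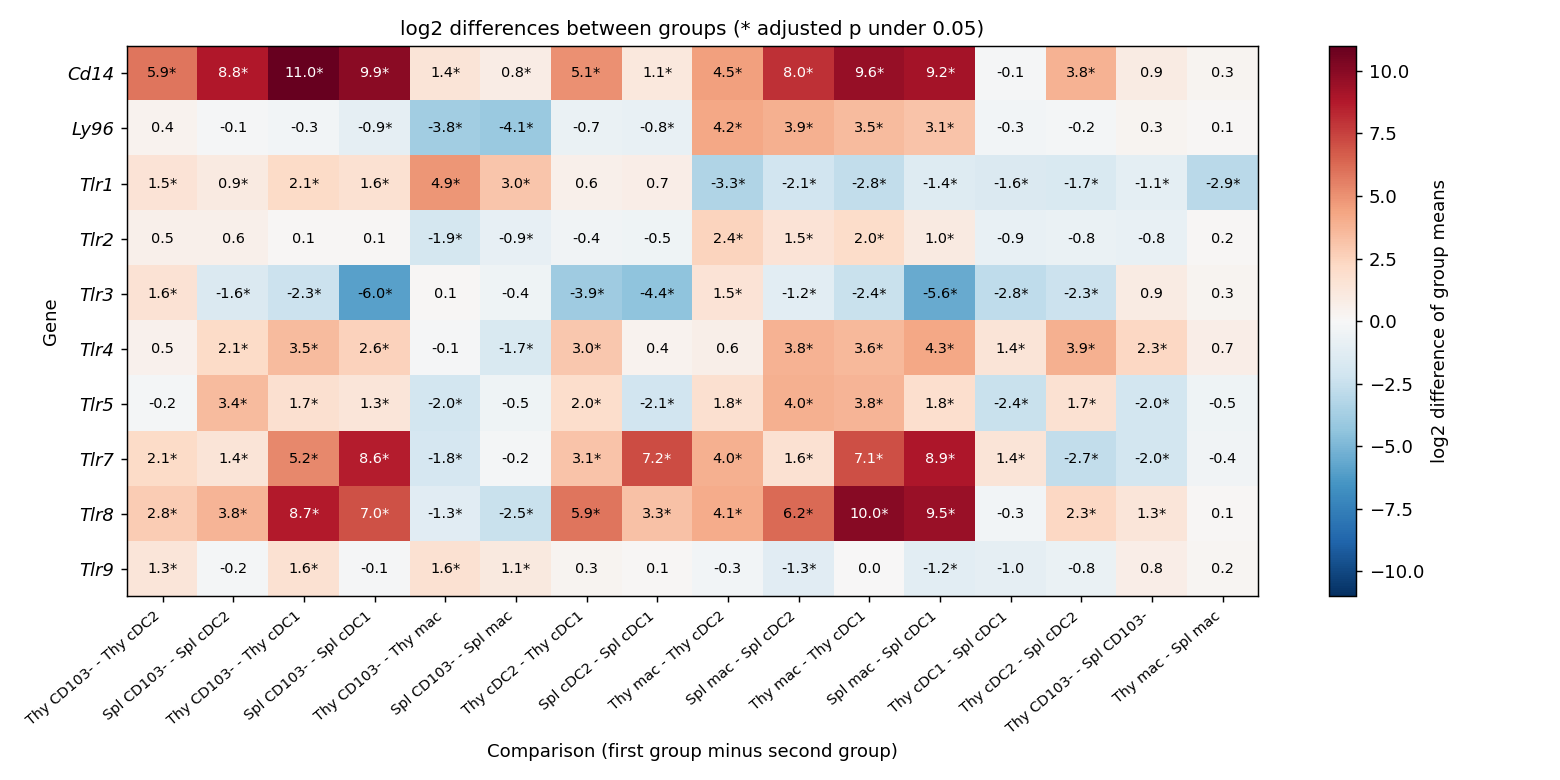
log2 differences of group means for the 10 genes (rows) in the 16 comparisons of pairs of groups (columns, first group minus second), with red for higher and blue for lower in the first group. An asterisk marks an adjusted p under 0.05, and differences from a group below background (Cd14 and Tlr8 in cDC1, Tlr7 in splenic cDC1) are lower bounds in the text. Cd14, Tlr7 and Tlr8 are higher in CD103- cells than in cDC2 in both organs, while Ly96 is near 0 there. Ly96 is high only where macrophages are the first group against cDC2 or cDC1, and low in CD103- cells minus macrophages.

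Over all 10 genes, CD103- cells were higher than cDC2 for 6 in thymus, where 5.34% of all clusters were called higher. None was lower, at 4.91% of all clusters (10.3% in either direction). The 6 were Cd14, Tlr1, Tlr3, Tlr7, Tlr8 and Tlr9. In spleen 6 were higher, where 4.81% of all clusters were called higher, and 1 was lower, at 4.21% (9.02% in either direction). Here Tlr4 and Tlr5 were higher and Tlr3 lower, and Tlr9 differed by -0.21 (SE 0.39, adjusted p = 0.859). Cd14, Tlr1, Tlr7 and Tlr8 were called higher in both organs. The splenic count of 7 calls fell to 4 without CD103- replicate 1, and the thymic count of 6 to 4 without cDC2 replicate 1 or CD103- replicate 2. The median difference of the 10 genes was 1.44 in thymus and 1.19 in spleen, against -0.02 and -0.04 over all clusters. Among clusters above background in at least 1 of the groups compared, 15.7% to 68.1% were called in either direction across the 16 pairwise comparisons, so the shares over all clusters understate how often an expressed gene was called.

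Against cDC1, CD103- cells were higher for 7 genes and lower for 1 (Tlr3) in thymus, where 8.66% and 9.09% of all clusters were called higher and lower (17.7% in all). In spleen 6 were higher and 2 lower (Ly96 and Tlr3), at 8.63% and 9.47% (18.1% in all). Against macrophages, CD103- cells were higher for 3 genes (Cd14, Tlr1 and Tlr9) in each organ. They were lower for 5 in thymus (Ly96, Tlr2, Tlr5, Tlr7 and Tlr8) and 4 in spleen (Ly96, Tlr2, Tlr4 and Tlr8). The shares of all clusters were 19.5% and 18.4% in thymus (37.9% in all) and 21.1% and 19.1% in spleen (40.2% in all). The splenic count of 7 calls fell to 4 without macrophage replicate 2.

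cDC2 were higher than cDC1 for 5 genes in thymus (Cd14, Tlr4, Tlr5, Tlr7 and Tlr8) and lower for Tlr3, where 6.75% and 6.93% of all clusters were called (13.7% in all). In spleen 3 were higher (Cd14, Tlr7 and Tlr8) and 3 lower (Ly96, Tlr3 and Tlr5), at 7.86% and 8.21% (16.1% in all). The splenic Cd14 difference, at least 0.2 units (adjusted p = 0.0153), was lost without either cDC1 array or without cDC2 replicate 1 (adjusted p of up to 0.208). Without replicate 1 of either group the splenic count of 6 calls fell to 4.

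Macrophages were higher than cDC2 for 7 genes in each organ, with 20.3% of all clusters called higher in thymus and 19.8% in spleen. They were lower for Tlr1 in thymus and for Tlr1, Tlr3 and Tlr9 in spleen, at 22.6% and 22.8%. In either direction 42.9% of all clusters were called in thymus and 42.5% in spleen. Tlr3 had opposite signs, 1.51 units higher in macrophages in thymus (SE 0.37, adjusted p = 0.00238) and 1.16 lower in spleen (SE 0.37, adjusted p = 0.0158). The thymic call was lost without cDC2 replicate 1 (adjusted p = 0.0619). The splenic call was lost without cDC2 replicate 2 or macrophage replicate 1, the difference ranged from -1.73 to -0.59 over the fits that left out 1 array, and the adjusted p reached 0.276. Against cDC1, macrophages were higher for 7 genes in each organ (20.4% and 19.7% of all clusters), and lower for 2 in thymus (Tlr1 and Tlr3) and 3 in spleen (Tlr1, Tlr3 and Tlr9), at 23.3% and 23.5% (43.7% and 43.2% in all). Cd14 was higher than in cDC1 by at least 8.54 and 8.22 units and Tlr8 by at least 9.41 and 9.27.

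Of the 10 genes, 7 were called between organs in cDC2 and 1 in macrophages, where 14.6% and 13.7% of all clusters were called. In cDC2, 4 genes were higher in thymus, where 7.99% of all clusters were called higher. They were Tlr4 by 3.95 units (SE 0.33, adjusted p = 1.16e-07), Cd14 by 3.83, Tlr8 by 2.32 (SE 0.32, adjusted p = 3.89e-05) and Tlr5 by 1.7 (SE 0.32, adjusted p = 0.00107). Another 3 were lower in thymus, at 6.6% of all clusters, with differences of -2.69 units for Tlr7 (SE 0.33, adjusted p = 1.05e-05), -2.35 for Tlr3 (SE 0.37, adjusted p = 0.000145) and -1.69 for Tlr1 (SE 0.25, adjusted p = 9.28e-05). Of the lipopolysaccharide receptor, Cd14 and Tlr4 thus stood higher in thymic cDC2, whereas Ly96 differed by -0.19 (SE 0.24, adjusted p = 0.734). The mean of 12 macrophage markers was 8.81 and 9.07 on the thymic cDC2 arrays and 6.99 and 7.67 on the splenic ones. Cd163 averaged 11.34 in thymic cDC2 and was below background in splenic cDC2. C1qb averaged 10.69 in thymic and 6.24 in splenic cDC2, and C1qc 11.68 and 7.075. Vcam1 went the other way, at 9.54 and 14.055, while Hmox1 (10.64 and 10.72) and Cd5l (6.29 and 6.285) hardly differed. Vsig4 and Marco were below background in both, but Marco was so in all 8 groups, and Vsig4 averaged only 6.055 in thymic macrophages. The part of these markers in the cDC2 differences was not tested.

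In CD103- cells 2 genes were higher in thymus, where 7.12% of all clusters were called higher, and 3 were lower, at 5.27% (12.4% in either direction). Tlr4 was higher by 2.31 units (SE 0.33, adjusted p = 0.000108) and Tlr8 by 1.35 (SE 0.32, adjusted p = 0.00825). The differences of those lower in thymus were -2.02 for Tlr7 (SE 0.33, adjusted p = 0.000381), -1.99 for Tlr5 (SE 0.32, adjusted p = 0.000382) and -1.09 for Tlr1 (SE 0.25, adjusted p = 0.0069). The Tlr8 and Tlr1 calls rested on single arrays. Tlr8 lost its call without thymic replicate 2 or splenic replicate 1 (1.02 to 1.67, adjusted p of up to 0.126), and Tlr1 without replicate 1 of either organ (-1.21 to -0.97, adjusted p of up to 0.0697). The macrophage marker mean was 10.73 and 10.63 on the thymic CD103- arrays and 8.73 and 9.84 on the splenic ones, and its part was not tested.

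In cDC1 2 genes were higher in thymus (6.69% of all clusters) and 3 were lower (5.38%), with 12.1% called in either direction. Tlr4 was higher by 1.39 units (SE 0.33, adjusted p = 0.00839), and Tlr7 was higher by at least 0.05, from a splenic mean below background. Both calls depended on single arrays, with adjusted p of up to 0.148 for Tlr4 without thymic replicate 2 or splenic replicate 1, and up to 0.147 for Tlr7 without replicate 1 of either organ. Tlr3 was lower in thymus by 2.81 units, Tlr5 by 2.41 (SE 0.32, adjusted p = 4.15e-05) and Tlr1 by 1.59 (SE 0.25, adjusted p = 0.000223). The mean of 10 B cell markers was 9.25 and 8.43 on the thymic cDC1 arrays and 6.42 and 7.33 on the splenic ones, and its part was not tested.

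In macrophages only Tlr1 was called, lower in thymus by 2.95 units (SE 0.25, adjusted p = 1.69e-07), where 6.21% of all clusters were called higher and 7.53% lower. The other 9 genes differed by -0.47 to 0.73 and did not pass the test. Tlr1 was thus lower in thymus in all 4 populations. The mean of 10 B cell markers was 5.84 and 5.97 on the thymic macrophage arrays and 8.72 and 9.3 on the splenic ones. The mean of 10 monocyte markers was 10.67 and 10.86 against 13.45 and 13.75. Both lists moved with Tlr1, and their part was not tested.

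**Figure D3:**
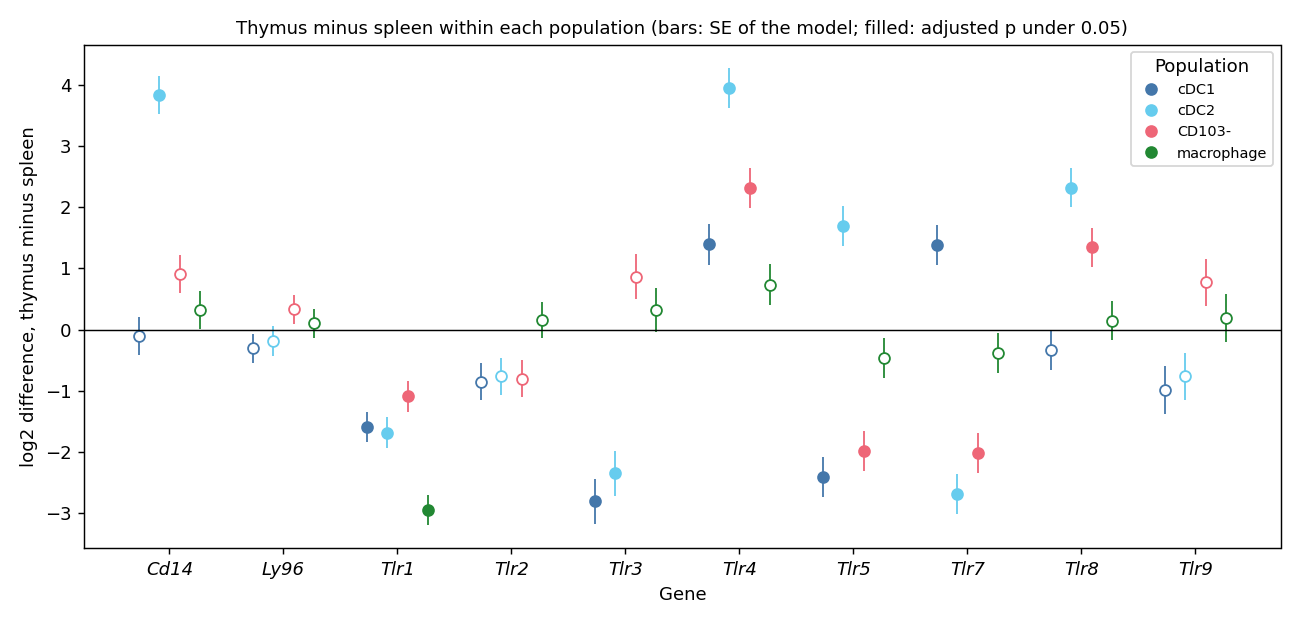
log2 difference, thymus minus spleen, of the 10 genes in each of the 4 populations (colours). Points are differences of means of 2 arrays, bars are the standard error of the model, and filled points had an adjusted p under 0.05. Tlr1 lies below 0 in all 4 populations, from -2.95 in macrophages to -1.09 in CD103- cells, and Tlr4 reaches 3.95 in cDC2.

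Whether a difference between populations itself differed by organ was tested as an interaction (thymus minus spleen). For CD103- cells against cDC2, 1 of 10 genes was called higher and 2 lower, where 1.43% and 2.12% of all clusters were called (3.55% in all). Tlr3 gave 3.21 (SE 0.52, adjusted p = 0.00106), Tlr5 -3.68 (SE 0.46, adjusted p = 8.96e-05) and Cd14 -2.92 (SE 0.43, adjusted p = 0.000499). The Cd14 value rests in part on a splenic cDC2 mean of 5.875, close to background. The Tlr4 interaction of -1.64 did not pass (SE 0.47, adjusted p = 0.0676), so the smaller thymic difference of Tlr4 was not called different from the splenic one. For cDC2 against cDC1, 4 were called higher and 1 lower, at 3.16% and 3.04% of all clusters (6.2% in all). These were Tlr5 (4.11), Cd14 (3.93), Tlr8 (2.65), Tlr4 (2.56) and Tlr7 (-4.06). Cd14 and Tlr8 lay below background in both cDC1 groups and Tlr7 in splenic cDC1, so these interactions rest on the cDC2 groups and on values at background. For macrophages against CD103- cells, Tlr7 was called higher (1.63) and Tlr1 lower (-1.86), at 2.35% and 4.44% of all clusters (6.79% in all). The Tlr7 call had an adjusted p of 0.0429 and was lost without any 1 of the 8 arrays of these groups (adjusted p of up to 0.147).

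The remaining TLRs on the array were part of a list of chaperones, trafficking proteins and other receptors. Tlr11 and Tlr12, which detect profilin of protozoan parasites in mice, were high in cDC1, with means of 13.29 and 13.46 in thymus and 15.14 and 14.54 in spleen. The other 6 groups averaged 5.31 to 8.73 for Tlr11 and 5.59 to 7.97 for Tlr12. Against cDC2, Tlr11 was higher in splenic cDC1 by 7.76 units (SE 0.4, adjusted p = 1.26e-10) and Tlr12 by 7.26 (SE 0.31, adjusted p = 1.55e-11). Tlr13, a receptor for bacterial ribosomal RNA in mice, went the other way, at 16.84 to 17.76 in cDC2 and CD103- cells, 15.27 and 16.03 in macrophages, and 12.56 and 13.71 in cDC1. Tlr6 averaged 8.75 to 11.48 and was highest in splenic macrophages.

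Unc93b1 carries the nucleic acid-sensing TLRs to endosomes. It averaged 8.88 in thymic cDC2 and 12.05 in splenic cDC2, a difference of -3.17 (SE 0.24, adjusted p = 2.98e-08), and 14.08 and 13.58 in thymic and splenic macrophages. CD103- cells exceeded cDC2 in Unc93b1 by 2.68 units in thymus (SE 0.24, adjusted p = 4.57e-07) but by 0.22 in spleen (SE 0.24, adjusted p = 0.727). Cd180, a TLR-like receptor that pairs with Ly86, averaged 10.53 and 12.34 in thymic and splenic cDC2, against 6.56 and 7.5 in cDC1. Of the 23 measured genes of that list, 9 were higher in CD103- cells than in cDC2 and none lower in thymus, and 8 were higher and 1 lower in spleen. The list median was 0.66 and 0.22, against -0.02 and -0.04 over all clusters. Among clusters above background in at least 1 of the groups compared, 17.7% were called in thymus and 15.7% in spleen in this comparison. Macrophages were higher than cDC2 for 15 of them and lower for 3 in thymus, and higher for 14 and lower for 4 in spleen, where 67.5% and 64.8% of clusters above background were called. Those higher included Pld3, an endosomal nuclease, and the lysosomal proteases Ctsl and Lgmn. In splenic macrophages Ctsl was higher by 6.93 units (SE 0.36, adjusted p = 4.28e-11) and Lgmn by 6.4 (SE 0.26, adjusted p = 2.46e-12).

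**Figure D4:**
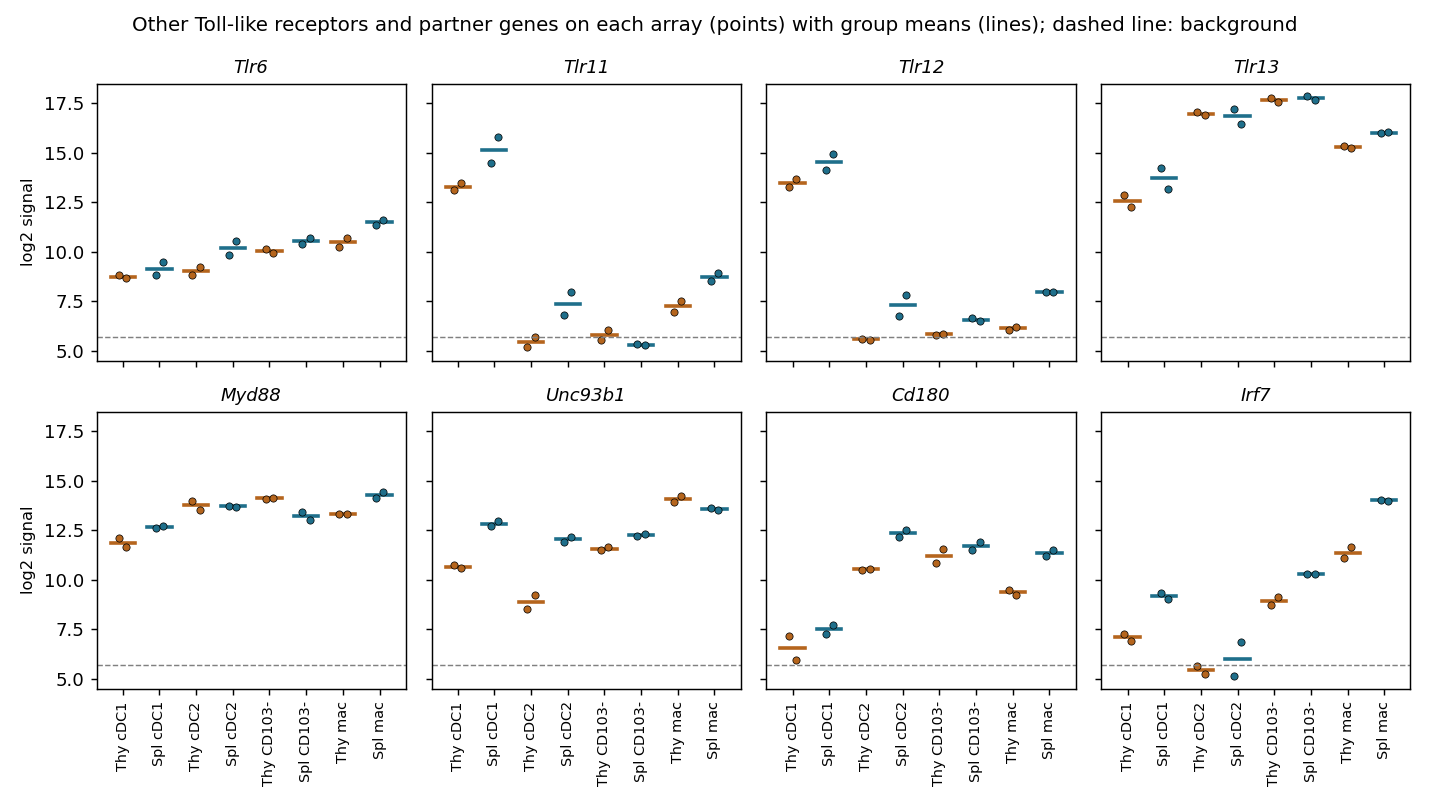
Deposited log2 signal (vertical axis) of 4 further TLRs and 4 partner genes in the 8 groups (horizontal axis; Thy, thymus; Spl, spleen; mac, macrophage). Points are single arrays, short lines are group means, brown is thymus, blue is spleen, and the dashed line is the background of 5.67. Tlr11 and Tlr12 are at 13.29 to 15.14 on average in cDC1 and at 8.73 or below elsewhere, and Tlr13 is lowest in cDC1.

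Of 21 adaptors and kinases, 4 were higher in CD103- cells than in cDC2 in thymus and none lower, and in spleen 2 were higher and 1 lower, where 17.7% and 15.7% of clusters above background were called. These shares are near the background. The list median was 0.24 and -0.1, against -0.02 and -0.04 over all clusters. Ikbke, a kinase upstream of interferon genes, was higher by 1.72 units in thymus (SE 0.33, adjusted p = 0.00167) and 4.57 in spleen (SE 0.33, adjusted p = 3.47e-08). Pik3ap1, which links TLRs to PI3 kinase, was higher by 1.08 (SE 0.22, adjusted p = 0.00306) and 1.05 (SE 0.22, adjusted p = 0.00432). Myd88 averaged 11.87 to 14.29 over the 8 groups. Against macrophages 12 of the 21 were higher and 2 lower in CD103- cells in thymus, and 11 higher and 3 lower in spleen. In each organ 61.5% of clusters above background were called, so the share of the list called in either direction was near the background. Of all clusters, 19.5% and 18.4% were called higher and lower in thymus, and 21.1% and 19.1% in spleen. Irak4, a kinase of the Myd88 complex, and Ticam2, an adaptor of Tlr4, were lower in both organs and Myd88 in spleen. The ubiquitin ligase Traf6 was higher by 4.79 units (SE 0.41, adjusted p = 3.63e-08) and 4.6 (SE 0.41, adjusted p = 6.14e-08). The median of the list in these comparisons was 0.81 and 0.78, against 0.1 and 0.16 over all clusters.

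Of 12 transcription factors, 2 were higher in CD103- cells than in cDC2 in each organ and none lower, a share near the 17.7% and 15.7% of clusters above background that were called. The list median was 0.05 and 0.16, against -0.02 and -0.04 over all clusters. Irf7, a driver of type I interferon genes, was higher by at least 3.25 units in thymus and by 4.3 in spleen (SE 0.38, adjusted p = 4.07e-07). Jun was the other in thymus and Irf8 in spleen. Against macrophages, 5 of the 12 were higher and 2 lower in CD103- cells in thymus, and 6 higher and 2 lower in spleen. In each organ 61.5% of clusters above background were called. Macrophages were lower than CD103- cells for the NF-kB subunits Rel, by 5.67 units in thymus (SE 0.29, adjusted p = 7.97e-11) and 4.27 in spleen (SE 0.29, adjusted p = 2.02e-09), and Nfkb1, by 3.06 (SE 0.36, adjusted p = 1.77e-06) and 3.3 (SE 0.36, adjusted p = 6.94e-07). Going the other way, Irf7 averaged 11.365 and 14.015 in thymic and splenic macrophages, against 8.92 and 10.28 in CD103- cells. Irf3 averaged 10.425 and 10.545, against 8.465 and 8.4.

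Of 16 inhibitors, 4 in thymus and 5 in spleen were higher in CD103- cells than in cDC2 and none lower, beside 5.34% and 4.81% of all clusters called higher and 17.7% and 15.7% of those above background called in either direction. The list median was 0.55 and 0.3, against -0.02 and -0.04. Socs3 was higher by 2.01 units in thymus (SE 0.6, adjusted p = 0.0399) and 3.82 in spleen (SE 0.6, adjusted p = 0.000285), and Irak3, which damps the Myd88 complex, by 3.13 in spleen (SE 0.32, adjusted p = 2.47e-06).

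Of 18 measured genes that TLR signalling is known to induce, 13 in thymus and 14 in spleen were higher in CD103- cells than in cDC2 and none lower. The same shares of all clusters apply. The list median was 2.72 and 3.3 units, against -0.02 and -0.04 over all clusters. Il1a, a cytokine of the IL-1 family, was higher by 6.85 units in thymus (SE 0.56, adjusted p = 1.55e-07) and 7 in spleen (SE 0.56, adjusted p = 1.09e-07). The chemokine gene Ccl3 was higher by 4.24 (SE 0.59, adjusted p = 6.89e-05) and 5.46 (SE 0.59, adjusted p = 4.12e-06). Nos2, which makes nitric oxide, averaged 13.59 in splenic CD103- cells, at least 7.92 units above splenic cDC2, and 12.05 in splenic macrophages. Nos2 was lower in thymic CD103- cells than in splenic ones by 6.69 units (SE 0.42, adjusted p = 9.79e-09). Against macrophages, 9 of the 18 were higher and none lower in CD103- cells in thymus, and 12 higher and 1 lower in spleen. There 19.5% and 21.1% of all clusters were called higher, and 61.5% of those above background were called in either direction in each organ. Between organs, 6 of the 18 were lower in thymic than in splenic CD103- cells and none higher. In that comparison 5.27% of all clusters were called lower and 7.12% higher. Of the clusters above background, 21.3% were called in either direction. The mean of 10 monocyte markers was 12.53 and 12.72 on the thymic CD103- arrays and 13.55 and 13.28 on the splenic ones, against 9.24 to 9.82 on the cDC2 arrays. Like Cd14 and these induced genes it was higher in CD103- cells than in cDC2, and its part was not tested.

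The genes whose group means were most like those of the 10 were found by Pearson's r over the 8 group means, among 6189 clusters whose means spanned at least 2 units. With 8 points and so many clusters, high values are a description and no test. Cd14 was most like Tfec (r = 0.995), C3ar1 (0.98) and Slc28a2 (0.978). Genes like Tlr8 included Itsn1 (0.981) and Fcgr2b (0.98), and Tlr7 was most like Nod1 (0.985), Aoah (0.979) and Lilrb3 (0.971). Tlr4 was most like Adam9 (0.99), Maoa (0.986) and Apoe (0.983). Tlr3 was most like Svbp (0.978), Fgd2 (0.973) and Tirap (0.966), an adaptor of Tlr2 and Tlr4 that averaged 8.96 in splenic cDC1. Tlr1 was most like Ell2 (0.985), Kdm6b (0.984) and Zcchc2 (0.984). Ly96 was most like Psmb1 (0.998), Tmem223 (0.997) and Rabac1 (0.997), and Tlr2 most like LOC680910 (0.981), Aldh3b1 (0.975) and Egln2 (0.973). The closest genes to Tlr5 were less alike, at 0.932 for Ccl6, 0.909 for Lrp4 and 0.905 for LOC690955. Tlr9 spanned less than 2 units and was not searched.

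Among the 10 genes themselves, Cd14 and Tlr8 had the most alike group means (r = 0.943 over 8 groups), followed by Ly96 with Tlr2 (0.878), Tlr7 with Tlr8 (0.877) and Tlr4 with Tlr8 (0.864). Tlr3 ran against Tlr7 (-0.786), Tlr8 (-0.766) and Tlr4 (-0.743), and Tlr1 against Ly96 (-0.756). These values share the same 16 arrays.

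**Figure D5:**
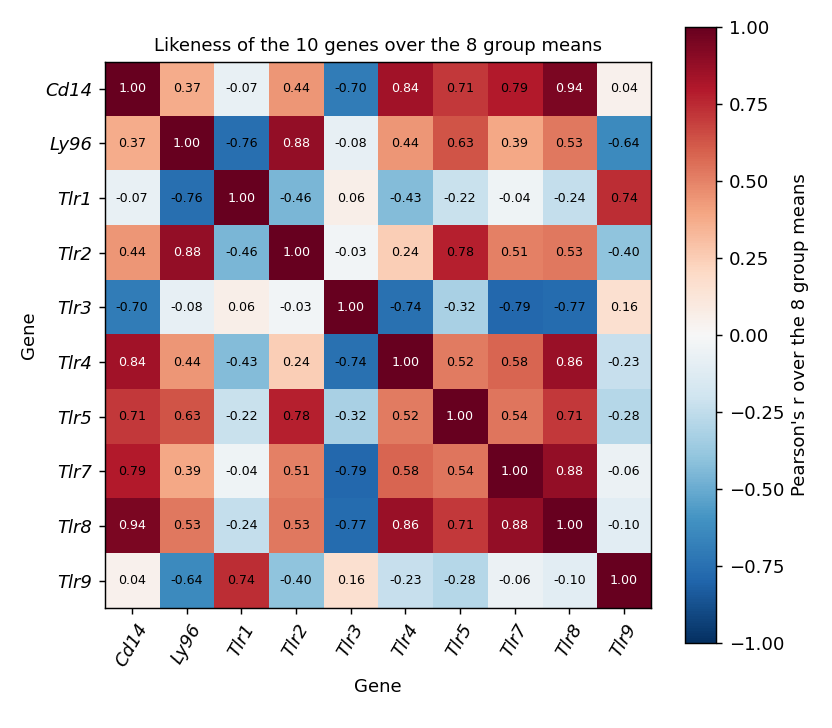
Pearson's r between the group means of each pair of the 10 genes (rows and columns), over 8 groups. Red is a like order of groups and blue an opposite one. Cd14 and Tlr8 are at 0.943, Ly96 and Tlr2 at 0.878, Tlr4 and Tlr7 at 0.583, and Tlr3 is at -0.786 with Tlr7.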

How the data were processed

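Gene expression was measured on 16 arrays in 8 groups of 2. The deposited values were log2 signals made with the Transcriptome Analysis Console, per the submitters' processing notes. The sources used here give no version, normalization, background correction or genome build. The columns were used as deposited, without scaling or a filter. A gene is named from the symbol column of the table, in which 21502 of 23188 clusters carried 1 symbol and 1673 several.

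Every cluster was modelled by its 8 group means over the 16 arrays (R 4.3.3, limma 3.58.1, 8 residual and 9.21 prior degrees of freedom). Its two-sided moderated test was adjusted by Benjamini-Hochberg over all clusters within each of 19 main comparisons, and SE is the standard error of that model. The background level is the 95th percentile of 1160 olfactory receptor clusters. At or below it, in all groups, lay 38.5% of clusters. A bound measures how far the group above that level lies from it. On simulated data for the thymic comparison of CD103- cells with cDC2 (23188 genes, 200 changed), 16.3% of changed genes were called at a log2 change of 1, 92.8% at 2 and 99.9% at 4. The 2 arrays a group limit the precision of every value.

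The members, lists, markers and tests were chosen with earlier results of these data known. Named genes are the 10 members in every comparison, Itgae, Sirpa and Cd163 as checks, the 3 most alike genes of each member spanning at least 2 units (1 of them is not reported here), and up to 3 called genes per direction with the largest difference for each pathway list and pair of groups. The other TLRs, Unc93b1, Cd180, Myd88, Tirap and the marker genes were named after their values were seen. For a symbol with several clusters the cluster with the highest mean stood for the gene. Of the list genes, Tlr10, Acod1 and Saa3, and of the markers Ighm, Klrb1a and Krt5, had no row of their own. The mean of the NK cell markers was 4.47 to 5.3 on the dendritic arrays and 6.52 and 6.85 on the splenic macrophage arrays. The mean of the epithelial and stromal markers was 6.08 to 7.14 on the dendritic arrays. Of these, Cdh5 averaged 11.83 to 12.27 in the thymic and 8.28 to 9.16 in the splenic dendritic groups, and Pecam1 9.48 in splenic cDC2 and 9.82 in splenic CD103- cells. T cell and thymocyte markers averaged 6.74 to 7.91 on thymic arrays and 5.02 to 5.65 on splenic ones.

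Alternatives were weighted arrays, quantile normalization, centring on the median, leaving out dim probes, fitting only the arrays compared, a block for the replicate number, a trended and robust eBayes, a test of at least a 2-fold change, the 99th percentile as background, and leaving out each array. Sequences are RefSeq's, on GRCr8. Figures were drawn with matplotlib 3.10.9.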

Additional observations from a re-analysis of the deposited data

Results flagged for a closer look

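The difference between 2 populations was called different between the organs for 10 combinations of a gene and a pair of populations (interaction, thymus minus spleen, limma). Each value follows with its SE and adjusted p. For CD103- cells minus cDC2, Cd14 gave -2.92 (SE 0.43, adjusted p = 0.000499), with 5.91 in thymus and 8.82 in spleen. Its splenic cDC2 mean of 5.875 lay close to the background of 5.67. Tlr3 gave 3.21 (SE 0.52, adjusted p = 0.00106), from 1.61 and -1.6. Tlr5 gave -3.68 (SE 0.46, adjusted p = 8.96e-05), from -0.24 and 3.44.

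For cDC2 minus cDC1, Tlr5 gave 4.11 (SE 0.46, adjusted p = 1.69e-05), with 1.97 in thymus and -2.14 in spleen, and both cDC1 groups were above background. Tlr4 gave 2.56 (SE 0.47, adjusted p = 0.00196), from 2.98 and 0.42. Cd14 gave 3.93 (SE 0.43, adjusted p = 1.57e-05), Tlr7 -4.06 (SE 0.47, adjusted p = 2.32e-05) and Tlr8 2.65 (SE 0.45, adjusted p = 0.00101). These last 3 include cDC1 means below background.

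For macrophages minus CD103- cells, Tlr1 gave -1.86 (SE 0.36, adjusted p = 0.00301), where CD103- cells were higher by 4.89 in thymus and 3.04 in spleen. Tlr7 gave 1.63 (SE 0.47, adjusted p = 0.0429), from 1.85 and 0.22, and lost its call without any 1 of the 8 arrays of these groups.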

How the results depend on the processing

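Of the 160 tests of a gene in a pair of groups, 111 were called. A test of at least a 2-fold change ended 43 of these calls and left 68. The genes called were then 2 (thymus) and 3 (spleen) for CD103- cells against cDC2, 5 for splenic CD103- cells against cDC1, 4 and 3 for CD103- cells against macrophages in thymus and spleen, 6 each for splenic macrophages against cDC2 and against cDC1, 2 between organs in cDC1 and 1 in CD103- cells, and in the interactions 3 for cDC2 against cDC1 and 0 for macrophages against CD103- cells (2 at an adjusted p under 0.05 with no minimum fold, 6 at an unadjusted p under 0.05). The last interaction called 4 genes in the fit to the groups compared, after the filter on dim probes, and with trend and robust. Quantile normalization turned 1 difference, Tlr9 in thymic macrophages against cDC1 (-0.11), which was called in neither. Array weights and median centring moved no count of called genes by over 1.5 times. With the 99th percentile as background, 71 of 80 group means lay above it. With the replicate number as a block, 112 tests were called, 111 of them shared. The same-numbered arrays deviated together (r over 0.1) in 4 of 28 pairs of groups (-0.068 to 0.182), so the numbers were not taken to pair the samples. The use of another cluster per gene could not be tried, since each of the 10 genes had 1. With each array left out in turn, the calls ranged from 1 to 4 for the interaction of macrophages against CD103- cells and from 4 to 7 for splenic CD103- cells against cDC2 and against macrophages. Differences that changed sign in some of these fits were not called. Between organs they were Cd14 (-0.42 to 0.21) and Tlr8 (-0.81 to 0.14) in cDC1, and Tlr8 (-0.075 to 0.355) and Tlr9 (-0.07 to 0.44) in macrophages. Within thymus they were Tlr2 (-0.015 to 0.31) in CD103- cells against cDC1, Tlr4 (-0.4 to 0.17) against macrophages, Tlr5 (-0.56 to 0.075) against cDC2, and Tlr9 (-0.12 to 0.14) in macrophages against cDC1. Within spleen they were Ly96 (-0.32 to 0.06) and Tlr9 (-0.56 to 0.14) in CD103- cells against cDC2, Tlr2 (-0.395 to 0.585) and Tlr9 (-0.95 to 0.73) against cDC1, Tlr3 (-0.92 to 0.04) against macrophages, and Tlr2 (-0.97 to 0.015), Tlr4 (-0.055 to 0.895) and Tlr9 (-0.74 to 0.94) in cDC2 against cDC1. In the interactions they were Tlr2 (-0.34 to 0.26) for CD103- cells against cDC2, Ly96 (-0.48 to 0.02) for macrophages against CD103- cells, and Ly96 (-0.12 to 0.36), Tlr1 (-0.295 to 0.105), Tlr2 (-0.4 to 0.58), Tlr3 (-0.11 to 1.03) and Tlr9 (-0.62 to 1.07) for cDC2 against cDC1. The cause of these changes was not tested. With 2 arrays a group, log2 differences near 1 were seldom called in the simulation (16.3%), which changed 200 of 23188 genes. In the data 2377 clusters were called in the thymic comparison of CD103- cells with cDC2. The simulation therefore need not give the share called at such differences here.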
